A study of Homo sapiens with 4 samples.

Results

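The proteasome genes described here are the protein-coding genes of the human reference annotation whose whole symbol is PSMA, PSMB, PSMC, PSMD, PSME, PSMF or PSMG followed by digits. The rule returned 48 of 20037 protein-coding genes and used no measured value. They were followed in H3K27ac ChIP-seq of K562 cells, an established human line grown from a patient's chronic myeloid leukaemia in its blast phase. The mark H3K27ac is histone H3 carrying an acetyl group on lysine 27 and is found at active promoters and enhancers. One group of cells, with no drug, was compared with another incubated with daunorubicin at 1 µM for 18 h. Daunorubicin is an anthracycline drug that slips between DNA bases and traps topoisomerase II on DNA, and the series as a whole concerns enhancers that this drug induces in leukaemia cells. Both groups are the same line and differ in the drug alone as far as the labels say. Each had 1 H3K27ac library and 1 input library of unselected chromatin, so no difference below has a replicate check and none carries a p-value.

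The proteasome is the large protease that degrades ubiquitin-tagged proteins. Its core particle is a barrel of alpha rings, which gate the entry, and beta rings, which hold the protease sites. A regulatory particle docks on the barrel, where its ATPase subunits unfold the substrate and its other subunits bind and remove ubiquitin. Activators can take the place of the regulatory particle, and chaperones help to assemble both. Catalytic subunits induced by interferon replace the constitutive ones in the immunoproteasome. Proteasome subunit genes are housekeeping genes that are raised together by the transcription factor NFE2L1 when proteasome activity falls short, and inhibitors of the complex are used against some blood cancers.

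The deposited peak list of the treated library held 65118 peaks over 57 Mb, and that of the untreated library held 38626 peaks over 36 Mb. Mean peak width was 875 bp with daunorubicin and 931 bp without. The numbers of reads behind the lists are unknown here, and depth, enrichment and treatment cannot be told apart as sources of the larger treated list. The inputs gave 87 peaks with daunorubicin and 92 without, and no proteasome gene had an input peak within 10 kb of its span. Of 10 marker genes of K562 cells, 9 were marked near an end or start (1 kb or less) in the untreated library (HBG2 had none) and 10 in the treated one. Of 10 markers of other cell types, 4 had such a peak without the drug and 6 with it. Those with none in either library included PAX5, PDGFRB and CDH1, and the part of neighbouring genes in the marker counts was not tested.

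Sequence upstream of the start was available for 42 of the 48 genes, from RefSeq on GRCh38.p14. PSMA7, PSMB1, PSMB6, PSMB7, PSMD4 and PSMG3 were not in that table. The 250 bases before the start of 5 genes are shown because they span the range of marking seen below: PSMD12, marked over more bases with daunorubicin (chr17:67366578-67366827, minus strand), PSMB3, marked over fewer (chr17:38752491-38752740, plus strand), PSMB9, an immunoproteasome subunit gene (chr6:32853942-32854191, plus strand), and PSMA8 (chr18:26133619-26133868, plus strand) and PSMB11 (chr14:23041962-23042211, plus strand), whose starts had no peak. They are written 5′ to 3′ along the gene. Capitals mark TGACNNNGC, the core of the antioxidant response element that cap'n'collar factors such as NFE2L1 bind, and CGGAAG, the core bound by ETS factors, on either strand.
PSMD12: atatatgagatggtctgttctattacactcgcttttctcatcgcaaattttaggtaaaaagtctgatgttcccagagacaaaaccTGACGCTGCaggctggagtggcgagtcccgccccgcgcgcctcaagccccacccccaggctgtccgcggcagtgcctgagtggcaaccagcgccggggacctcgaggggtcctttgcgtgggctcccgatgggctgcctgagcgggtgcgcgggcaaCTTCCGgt
PSMB3: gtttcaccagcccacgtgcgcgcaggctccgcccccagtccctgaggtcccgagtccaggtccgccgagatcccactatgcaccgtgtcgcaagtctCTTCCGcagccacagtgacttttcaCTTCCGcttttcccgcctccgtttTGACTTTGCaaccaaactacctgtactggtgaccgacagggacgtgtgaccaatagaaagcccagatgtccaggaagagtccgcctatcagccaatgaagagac
PSMB9: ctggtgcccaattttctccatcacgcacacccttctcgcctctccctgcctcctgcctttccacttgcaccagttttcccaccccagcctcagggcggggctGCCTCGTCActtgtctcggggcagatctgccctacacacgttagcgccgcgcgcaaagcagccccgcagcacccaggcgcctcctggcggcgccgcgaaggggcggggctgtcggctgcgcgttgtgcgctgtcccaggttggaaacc
PSMA8: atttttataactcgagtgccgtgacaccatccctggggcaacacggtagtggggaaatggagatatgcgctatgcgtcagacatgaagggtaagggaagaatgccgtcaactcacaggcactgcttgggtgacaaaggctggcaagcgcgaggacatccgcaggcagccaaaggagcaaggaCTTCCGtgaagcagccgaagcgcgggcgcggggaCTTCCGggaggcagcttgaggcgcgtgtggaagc
PSMB11: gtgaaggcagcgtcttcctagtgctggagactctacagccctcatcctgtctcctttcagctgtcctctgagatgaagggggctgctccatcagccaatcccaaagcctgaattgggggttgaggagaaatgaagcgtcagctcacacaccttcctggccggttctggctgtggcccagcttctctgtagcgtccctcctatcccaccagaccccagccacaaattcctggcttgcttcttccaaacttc

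All 250 bases of the PSMD12 stretch lay under a peak in both libraries. At PSMB9, 249 bases were covered with daunorubicin and 177 without. No base was covered in either library at PSMB3, PSMA8 or PSMB11. Across the 42 genes the stretch was covered whole in 30 with daunorubicin (71.4%) and in 30 without (71.4%), against 39.4% and 41.1% of 15825 protein-coding genes with a start in the table.

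The antioxidant response element core occurred in the stretch of 12 of 42 proteasome genes (28.6%), against 11.5% of all protein-coding genes with a start and 12.5% of the 8917 whose start was marked in both libraries. All 12 had a start marked in both libraries. The 13 matches are shown, with 10 bases before and after each and the core in capitals, because the same core recurs across alpha, beta, regulatory particle, activator and chaperone genes. Each is written on the strand where the core reads TGACNNNGC.
PSMA4: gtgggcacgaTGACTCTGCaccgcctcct
PSMB3: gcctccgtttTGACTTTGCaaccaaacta
PSMB9: ccgagacaagTGACGAGGCagccccgccc
PSMC5: agggcggcgcTGACACAGCagatccggtc
PSMD3: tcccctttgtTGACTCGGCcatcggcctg
PSMD5: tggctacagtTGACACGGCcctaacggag
PSMD9: gcgcctgtggTGACCCGGCaggagtagcg
PSMD9: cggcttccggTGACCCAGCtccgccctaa
PSMD12: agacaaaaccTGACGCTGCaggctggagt
PSME1: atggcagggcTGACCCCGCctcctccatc
PSME2: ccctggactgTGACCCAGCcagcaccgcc
PSME4: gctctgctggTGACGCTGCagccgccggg
PSMG1: gcccagggcaTGACAGCGCgggcgggcgg

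The cores at PSMB9, PSMC5 and PSME4, and the upper of the PSMD9 matches, read against the direction of the gene. The base of the core farthest upstream lay before the start by a distance that ranged from 34 bases at PSME4 to 183 bases at PSMG1. The ETS core was found at 23 of 42 proteasome genes (54.8%), against 21.2% of all protein-coding genes and 31% of those marked in both libraries. Both cores stood together at PSMA4, PSMB3, PSMD9, PSMD12 and PSME4, which is 11.9% of the 42, against 2.4% of all. At PSMA4 and PSMC5 the promoter-table start lies 381 bp and 290 bp inside the outer annotated end, so their matches lie within the annotated gene. A match is a description of letters and not a binding site.

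The other motifs, each read on both strands, came to 9. CCAAT, the box bound by NF-Y, was in 40.5% of proteasome genes and 33.9% of all. GGGCGG, the GC box of Sp factors, was in 59.5% and 54.4%, but among genes with a start marked in both libraries the order was the other way, with 64.1% and 71.1%. TTCNNNGAA, the letters of a STAT site, was in 7 genes (16.7%, against 6.11%): PSMA2, PSMA8, PSMB5, PSMB8, PSMC4, PSMD3 and PSME3. GAAANNGAA, part of an interferon response element, was in PSMB4, PSMB10, PSME2 and PSMG4 (9.52%, against 6.14%). TGACTCA, the AP-1 site, was in PSMC5, PSMD2 and PSMD9 (7.14%, against 3.46%). TATAAA was in 9.52% and 9.74% (7.69% and 4.61% of those marked in both libraries), and CACGTG in 7.14% and 7.51%. GATAAG and GCGCATGCG were in none of the 42, against 4.78% and 2.21% of all. Searches for TGACTCA and TGACNNNGC can meet in shared letters. The median number of CpG dinucleotides in the stretch was 19 in proteasome genes and 17 in all genes, and 20 and 22 among those marked in both libraries, with 4 at PSMB11, 18 at PSMA8 and 3 at PSMD2, the lowest of the 42. The promoter-table start of PSMD2 lies 1340 bp inside its outer annotated end. Its stretch, with the AP-1 match, therefore lies within the annotated gene and not before it.

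Proteasome genes were marked at their ends in both libraries more often than protein-coding genes at large. A peak lay within 1 kb of an annotated gene end in both libraries at 42 of 48 (87.5%, against 57.6% of all protein-coding genes). Only PSMB8 had an end marked with daunorubicin alone (2.08%, against 4.91%), none had an end marked without it alone (0%, against 0.749%), and 5 had no end marked in either (10.4%, against 36.7%). With the start from the promoter table in place of the ends, 39 of 42 genes were marked in both libraries (92.9%, against 56.3%). PSMB8 was again the one gene marked with daunorubicin alone (2.38%, against 4.02%), no gene was marked without it alone (0%, against 0.708%), and PSMA8 and PSMB11 were marked in neither (4.76%, against 38.9%).

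Of the 5 genes with unmarked ends, 3 had a start marked in both libraries that lies inside the outer annotated end. The start lay 13824 bp inside it at PSMA6, an alpha ring gene, 5339 bp at PSMF1, which encodes the inhibitor PI31, and 4543 bp at PSMG4, an assembly chaperone gene. The other two are subunits of tissue-specific proteasomes. PSMA8 (chr18:26133869-26193355), the alpha subunit of the testis proteasome, had no peak of either library within 10 kb of its span. PSMB11 (chr14:23042212-23044060), the catalytic subunit of thymic epithelium, had only the peak of its neighbour PSMB5 in that window, which ended at position -6861 from its start with daunorubicin and at -6911 without.

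Peak scores, which are the authors' own values, were used only to rank peaks within a list. The strongest peak at an end sat at a median percentile of 91.2 of the treated list and 90.1 of the untreated list over the proteasome genes, against 87.7 and 84.6 over all protein-coding genes with one. PSMD1, the largest scaffold subunit of the regulatory particle base, stood at 99.6 with daunorubicin and 99.8 without. PSMD5, a chaperone gene, stood at 99.5 and 99.2. The lowest was PSMB3, a non-catalytic beta subunit gene, at 56.2 and 62.8. The lists differ in length, so no change is read from these ranks.

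The length of sequence under peaks was then summed over a window of each gene with 10 kb added at both ends, and 47 of the 48 genes had some (PSMA8 had none). Daunorubicin gave the longer sum at 31 genes (66%, against 79.7% of 15907 protein-coding genes with any) and the shorter sum at 16 (34%, against 20.3%). At least 1.5-fold more sequence was covered with the drug at 13 genes (27.7%, against 37.2%) and at least 1.5-fold less at PSMB3 alone (2.13%, against 2.4%). The median gene was covered over 2683 bp with daunorubicin and 2219 bp without, and the median difference was 217 bp, against 538 bp over all protein-coding genes. Proteasome genes therefore lay below the background in the share longer with the drug. With equal numbers of top-scoring peaks taken from each list, 57.4% of proteasome genes and 61.7% of all genes were longer and 19.1% of each at least 1.5-fold longer, and PSMA1, PSMC2, PSMD1 and PSMD14 were then under 1.5-fold. With scores of at least 43 in both lists, PSMA1, PSMB5, PSMC2, PSMD1 and PSMD14 were under it, and PSMA3, PSMA5 and PSMC6 came past it. The window mattered too: PSMB5, PSMB9, PSMC2 and PSMG4 were under 1.5-fold with no extension of the span, and PSMA1, PSMB5 and PSMD6 with 50 kb. Other genes came past it, namely PSMA2, PSMA5, PSMB6, PSMB7 and PSMD4 with no extension and PSMA2, PSMA5, PSMA6 and PSMC4 with 50 kb. Each of these windows gave 14 genes past 1.5-fold, and the share of all genes at these windows is not given here. In all, 20 of the 48 genes changed direction in at least 1 of these settings.

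Part of that background is genes with no marked end. Among the 11548 protein-coding genes with an end marked in both libraries, 78.1% were longer with daunorubicin, 28.4% at least 1.5-fold longer and 1.41% at least 1.5-fold shorter. Of the 42 proteasome genes of that kind, 27 were longer (64.3%), 11 at least 1.5-fold longer (26.2%) and 1 at least 1.5-fold shorter (2.38%). The share past 1.5-fold was near this background, while the share longer at all was below it.

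**Figure D1:**
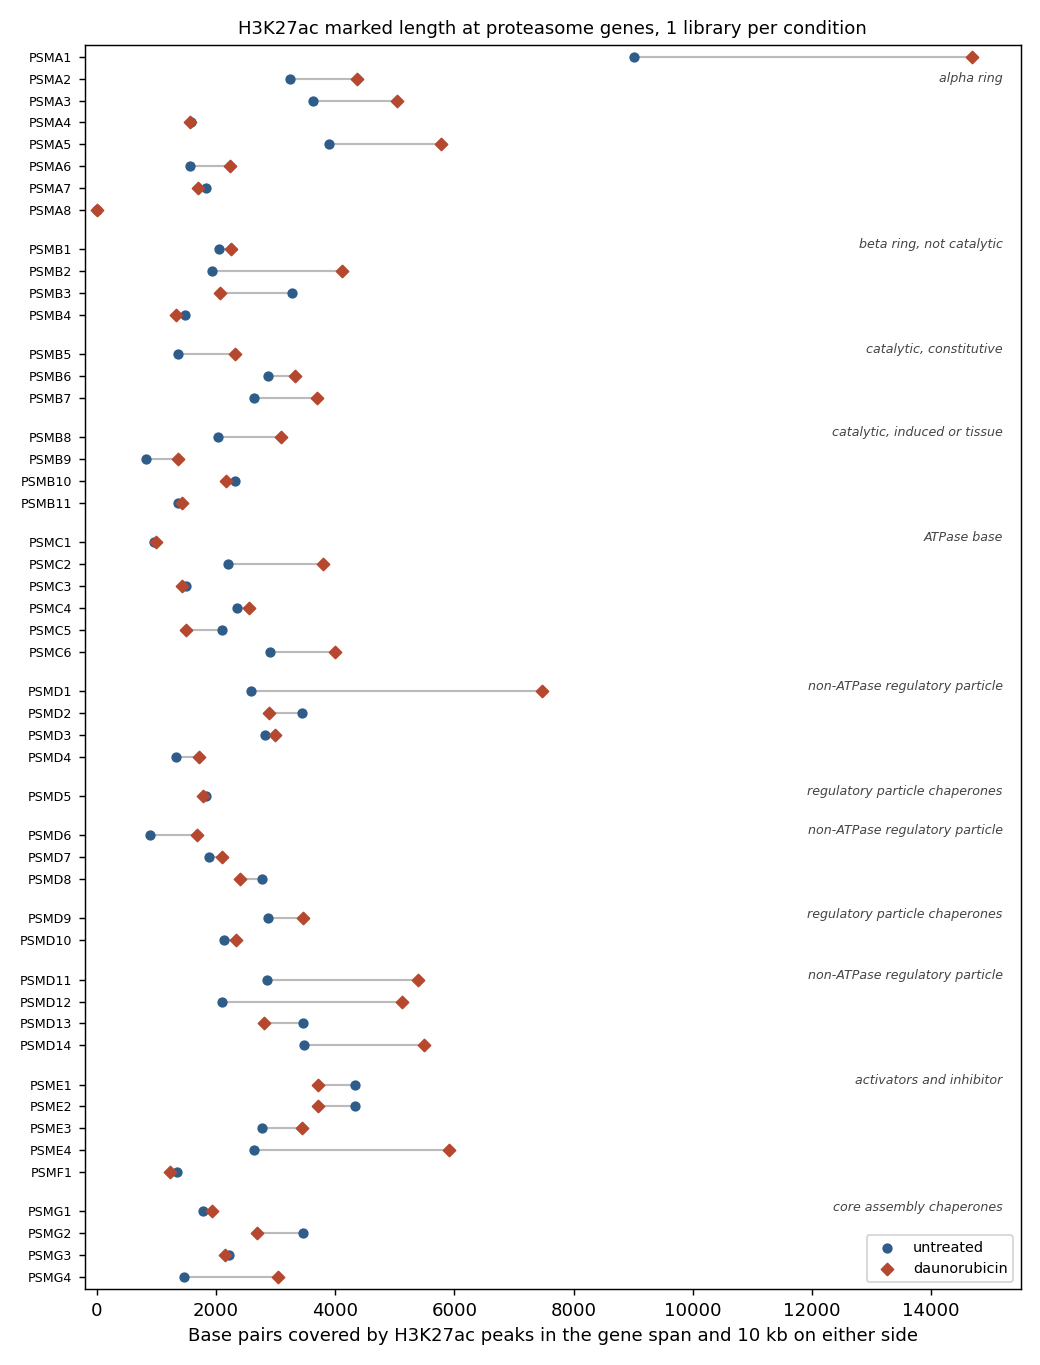
Base pairs under H3K27ac peaks in the span of each proteasome gene and 10 kb on either side (x axis), by gene and role (y axis), with 1 treated library (diamonds) and 1 untreated library (circles). PSMD1, PSMD12 and PSME4 show the largest ratios, PSMA1 the largest difference, and PSMB3 the largest shortfall with daunorubicin.

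The alpha ring genes, which form the gate of the core, were longer with daunorubicin at 5 of 7 marked members (71.4%, below the 79.7% of all genes), with a median difference of 1118 bp (538 bp over all genes). PSMA1 (chr11:14504876-14643662) was covered over 14681 bp with the drug and 9014 bp without, a ratio of 1.63, in a long annotated span whose promoter-table start lies 123276 bp inside the outer end. The peak at that outer end also lay within 1 kb of an end of PDE3B. PSMA1 was the only alpha ring gene past 1.5-fold. PSMA5 came close, with 5775 bp against 3897 bp (1.48). PSMA2, PSMA3 and PSMA6 had ratios of 1.34, 1.39 and 1.44. PSMA4, with 1564 bp and 1585 bp, and PSMA7, with 1703 bp and 1842 bp, were slightly shorter with the drug. Both of the latter carried 1 peak in the window of the untreated library.

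Of the 4 beta subunits without protease activity, 2 were longer with daunorubicin (50%, against 79.7% of all genes) and 2 shorter. PSMB2 (chr1:35599541-35641526) was covered over 4115 bp with daunorubicin and 1933 bp without (2.13). Its peak at the start was 1961 bp wide with the drug and 1631 bp without, and 4 weaker treated peaks with scores of 11 to 47 lay further into the gene or beyond it. PSMB3 (chr17:38752741-38764225) was covered over 2072 bp with daunorubicin and 3277 bp without, a ratio of 0.632. An untreated peak of 518 bp at chr17:38751944-38752461, with a score of 61, had no treated counterpart, and it also lay within 1 kb of an end of LOC100287808 and of TRN-GTT2-5, a tRNA gene. The peak inside the start of PSMB3 was 319 bp wide with the drug and 450 bp without. PSMB1 had a ratio of 1.09 and PSMB4 one of 0.907, and PSMB1 turned to -14 bp with equal numbers of peaks.

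The 3 constitutive catalytic subunit genes were longer with daunorubicin in the lists as deposited (79.7% of all genes were), with a median difference of 957 bp, but PSMB7 turned to -124 bp at scores of at least 43 and to -239 bp with equal numbers of peaks. PSMB5, the chymotrypsin-like subunit and the main target of proteasome inhibitor drugs, was covered over 2323 bp with the drug and 1366 bp without (1.70). Its own start peak was nearly the same in both, at 1437 bp and 1366 bp. The difference was a treated peak of 886 bp at chr14:23020427-23021312, 4539 bp outside the gene, with a score of 35. Without it, at scores of at least 43, the PSMB5 difference was 71 bp, and it was 21 bp with no extension of the span. PSMB6, the caspase-like subunit, had 3326 bp and 2872 bp (1.16). PSMB7, the trypsin-like subunit, had 3700 bp and 2643 bp (1.40), with 3 regions found only in the treated library and 2 only in the untreated one.

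Among the induced and tissue-specific catalytic genes, PSMB8 was the only proteasome gene with an end marked in 1 library. PSMB8 (chr6:32840717-32844679, minus strand) had a treated peak over its start, 949 bp wide at chr6:32843740-32844688, with a score of 60 at percentile 65.2 of the treated list, and no untreated peak within 1 kb. The peak reached from 641 bp before the start to 307 bp into the gene. The same peak lay within 1 kb of ends of PSMB8-AS1 and TAP1, so it cannot be assigned to 1 of them. The sum over the PSMB8 window was 3100 bp with daunorubicin and 2036 bp without (1.52).

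PSMB9 (chr6:32854192-32859851) lies beside TAP1, which encodes a transporter of the peptides that proteasomes produce. A peak just upstream of the PSMB9 start was 861 bp wide with daunorubicin and 829 bp without, and it stopped at position -2 from the start in the treated library and at -74 in the untreated one. Its score stood at percentile 98.2 of the treated list and 78.4 of the untreated list. The peak also lay within 1 kb of an end of TAP1, so it cannot be assigned to 1 of these genes. The PSMB9 sum was 1358 bp against 829 bp (1.64), with a difference of 0 bp inside the gene span alone, and 497 bp of the treated sum was the part of the PSMB8 peak that falls inside the PSMB9 window. These windows shared 2 treated peaks and 1 untreated peak. PSMB10, the remaining interferon-induced subunit, had its start peak at percentile 98.3 and 84 of the lists. It was covered over 2170 bp with the drug and 2314 bp without (0.938). PSMB11 had 1437 bp and 1366 bp, all in the peak that it shares with PSMB5.

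The 6 ATPase genes of the regulatory particle base gave 4 members longer with daunorubicin and 2 shorter, with a median of 119 bp for the difference (66.7% longer, against 79.7% of all genes). PSMC2 was the only one past 1.5-fold, with 3801 bp against 2203 bp (1.73), and its start peak was of like width, at 904 bp and 774 bp. PSMC5 had the largest shortfall, with 1498 bp against 2095 bp (0.715), and its start lies within 1 kb of an end of FTSJ3. Of its untreated sum, 252 bp was the edge of a peak near an end of SMARCD2. That region was marked in both libraries, but its treated peak lay beyond the window. PSMC6 had 4004 bp and 2910 bp (1.38). PSMC1, PSMC3 and PSMC4 had ratios of 1.04, 0.955 and 1.09, and PSMC4 turned to -6 bp both at scores of at least 43 and with equal numbers of peaks.

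The 11 other subunits of the regulatory particle included 5 of the 13 genes at least 1.5-fold longer (45.5% of the 11, against 37.2% of all genes), and 8 were longer with daunorubicin (72.7%, against 79.7%). PSMD1 (chr2:231056867-231172827) had the largest ratio of all proteasome genes, with 7465 bp with the drug and 2596 bp without (2.88). PSMD12 (chr17:67337916-67366577, minus strand), a scaffold subunit of the lid, had 5128 bp and 2109 bp (2.43). PSMD6, a lid subunit, had 1687 bp and 890 bp (1.90), and PSMD11, another lid subunit, had 5390 bp and 2851 bp (1.89). PSMD14, the deubiquitinase that removes the ubiquitin chain, had 5499 bp and 3481 bp (1.58).

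The shorter members of that set were PSMD13, PSMD2 and PSMD8. PSMD13 had the largest shortfall, with 2808 bp with daunorubicin and 3458 bp without (0.812), but its difference turned from -650 bp to 333 bp at scores of at least 43. PSMD2, a base scaffold that receives ubiquitin shuttle proteins, had 2888 bp and 3450 bp (0.837), and PSMD8 had 2410 bp and 2771 bp (0.870). The ubiquitin receptor gene PSMD4 had 1722 bp and 1328 bp (1.30). PSMD3 and PSMD7 had ratios of 1.06 and 1.12.

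None of the 3 chaperone genes of the regulatory particle passed 1.5-fold (37.2% of all genes did), and a group of 3 is too small to set against that share. PSMD9 had 3467 bp with daunorubicin and 2870 bp without (1.21), PSMD10, which encodes gankyrin, had 2341 bp and 2138 bp (1.09), and PSMD5 had 1781 bp and 1833 bp (0.972). PSMD10 turned to -174 bp at scores of at least 43 and with equal numbers of peaks. The group had a median difference of 203 bp. PSMD9 carried 2 antioxidant response element cores, the only gene with more than 1.

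Activator genes differed among themselves. PSME4 (chr2:53864069-53970993, minus strand), which encodes the nuclear activator PA200, was covered over 5911 bp with daunorubicin and 2642 bp without (2.24). PSME3, the nuclear homologue of PSME1 and PSME2, had 3446 bp and 2773 bp (1.24). PSME1 and PSME2, the interferon-induced activator pair, lie side by side and share 3 peaks of each library, so that both gave the same 3715 bp and 4337 bp (0.857). PSMF1 had 1235 bp and 1340 bp (0.922). The group of 5 had a median difference of -105 bp.

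Of the assembly chaperone genes of the core, PSMG4 was longer with daunorubicin, with 3049 bp against 1463 bp (2.08), and PSMG2 had the largest shortfall, with 2683 bp against 3463 bp (0.775). PSMG1 had 1929 bp and 1778 bp (1.08), and PSMG3 had 2152 bp and 2219 bp (0.970). The group was thus divided, with a median difference of 42 bp. With no extension of the span the PSMG4 difference was 389 bp. The PSMG4 start peak was 1613 bp wide with the drug and 1224 bp without, and a treated peak of 1142 bp with a score of 54 in its flank had no untreated counterpart.

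Overlapping peaks of the libraries were merged into regions, with at least 1 bp in common. In the windows of the proteasome genes lay 142 regions, each counted once where windows overlap. Both libraries had a peak in 91 of them (64.1%), the treated library alone in 46 (32.4%) and the untreated library alone in 5 (3.52%). Over all regions of the series these shares were 49.2%, 44.6% and 6.13%. Shared regions dominated at proteasome genes, and these include the start peaks. The median shared region spanned 1501 bp, and its top score was 194 at the median.

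Treated-only regions at proteasome genes were narrow and low in score. Their median width was 481 bp and their median score 25, with a range of 11 to 118. Of the 46, 32 lay inside a gene span, 11 in a flank and 3 at an annotated end, and 23 genes had at least 1. Those at an end were at PSMB8, PSMC4 and PSME3, and PSMC4 and PSME3 also had an end marked in both libraries. With equal numbers of peaks from each list, 12 regions were treated-only and 12 were untreated-only. The shares over all regions of the series are not given here for that setting, so these counts are not read as particular to proteasome genes. The highest score was that of a flank region near PSMC4, chr19:39960319-39961394, 1076 bp wide with a score of 118, within 1 kb of an end of LOC124904722. The untreated-only regions were at PSMB1, PSMB3, PSMB7 with 2, and PSMG2, with scores of 16 to 61.

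PSMD1 had the most treated-only regions, with 9, followed by PSMA1 with 6. All 9 lay inside the gene, from 1072 bp to 112172 bp after the start, with scores of 12 to 41 and widths of 219 to 1230 bp. The start peak of PSMD1 differed little between libraries, from 301 bp before to 822 bp after the start with daunorubicin and from 356 bp before to 847 bp after it without. The remaining peak of the window was shared as well, 1347 bp wide with the drug and 1392 bp without, 124516 bp or more from the start in the treated library. The surplus at PSMD1 was made up of these low-scoring peaks along the gene body. With peaks scoring below 43 removed from both lists, the difference at PSMD1 went from 4869 bp to -125 bp.

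PSMD12 showed another pattern, in which the start peak itself was wider. It reached from 721 bp before to 2101 bp after the start with daunorubicin, and from 552 bp before to 865 bp after it without. Its score stood at percentile 84.6 of the treated list and 90.6 of the untreated list. PSME4 was alike, with a start peak from 846 bp before to 2138 bp after the start with the drug and from 609 bp before to 1176 bp after it without. PSMC4 showed yet another pattern, a split peak. One untreated peak of 2348 bp covered its start, whereas treated peaks of 1548 bp and 564 bp flanked a gap from position -210 to position 34 around the start.

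**Figure D2:**
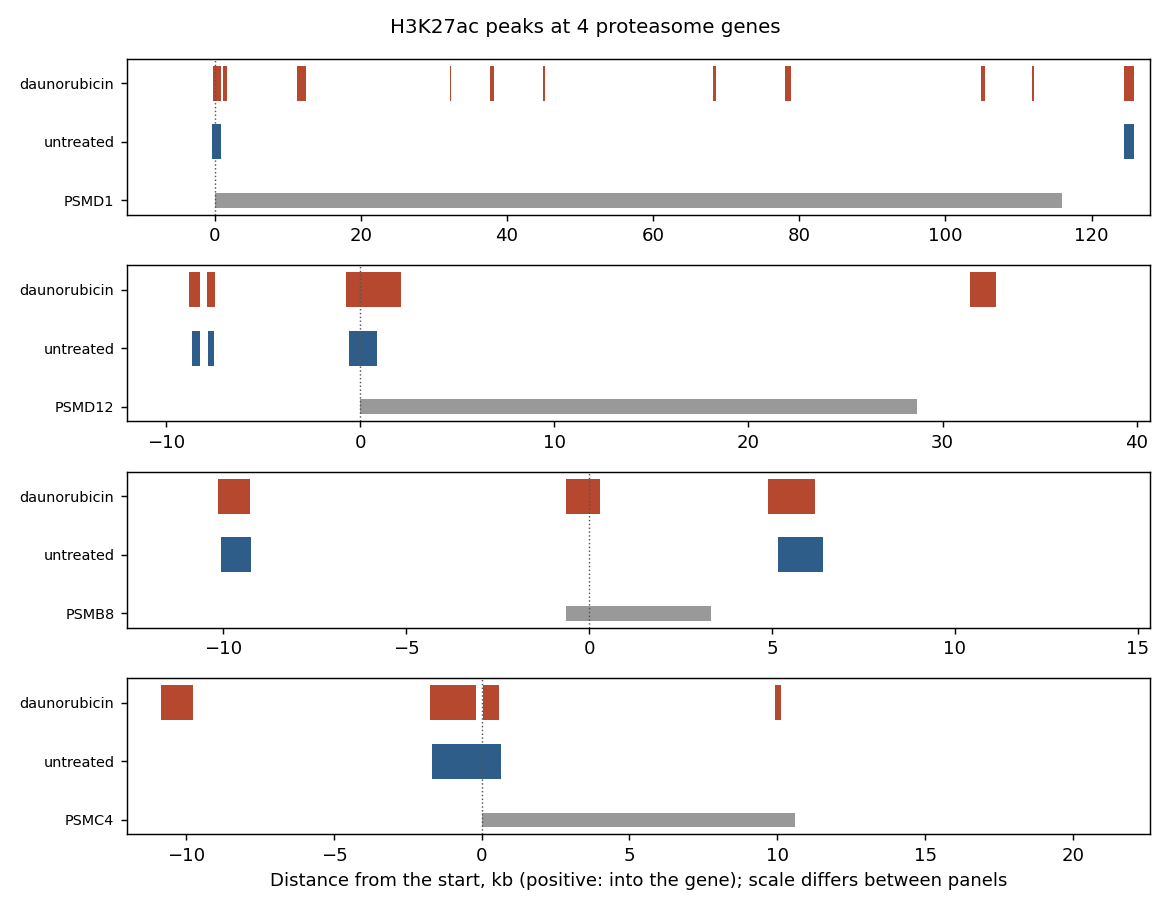
H3K27ac peaks (blocks) of the treated and untreated library along 4 proteasome genes (grey bars), by distance from the start in kb, with positive values into the gene and a scale that differs between panels. PSMD1 shows 9 treated-only peaks along its body, PSMD12 a treated start peak that reaches further into the gene, PSMB8 a treated-only peak over the start and PSMC4 a treated peak split at the start.

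At the 39 starts marked in both libraries, the base at the start itself lay under a peak in both at 33 (84.6%, against 80.1% of 8917 such protein-coding genes). It was covered in the untreated library alone at PSMA5, PSMC4 and PSMD3 (7.69%, against 7.74%) and in the treated library alone at none (0%, against 3.63%). It was covered in neither at PSMB3, PSMB9 and PSMD2 (7.69%, against 8.55%), and the PSMD2 start lies 1340 bp inside its outer annotated end. These shares were near those of all genes for the untreated library alone and for neither. In 8 of the 91 shared regions, at PSMA5, PSMB3, PSMB10, PSMC4, PSMD2, PSMD3 and PSMD10, 1 untreated peak met several treated peaks, and in 2, at PSMA5 and PSME4, 1 treated peak met several untreated ones. The share of such splits over all shared regions of the series is not given here, so they are not read as particular to these genes.

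Marking around these starts differed less than marking elsewhere in the windows. Within 2 kb of the start, the median covered length was 1666 bp with daunorubicin and 1585 bp without, and the median of the differences was 69 bp (89 bp over all genes of that kind). It was wider with the drug at 23 starts and narrower at 16 (59% wider, against 63.8%). Outside those 2 kb the median difference was 224 bp, against 360 bp, with 22 genes longer, 8 shorter and 9 without any peak there in either library. Summed over the 42 genes with a start, 67450 bp with the drug and 61904 bp without lay within 2 kb of it, and 70044 bp and 42932 bp lay in the rest.

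**Figure D3:**
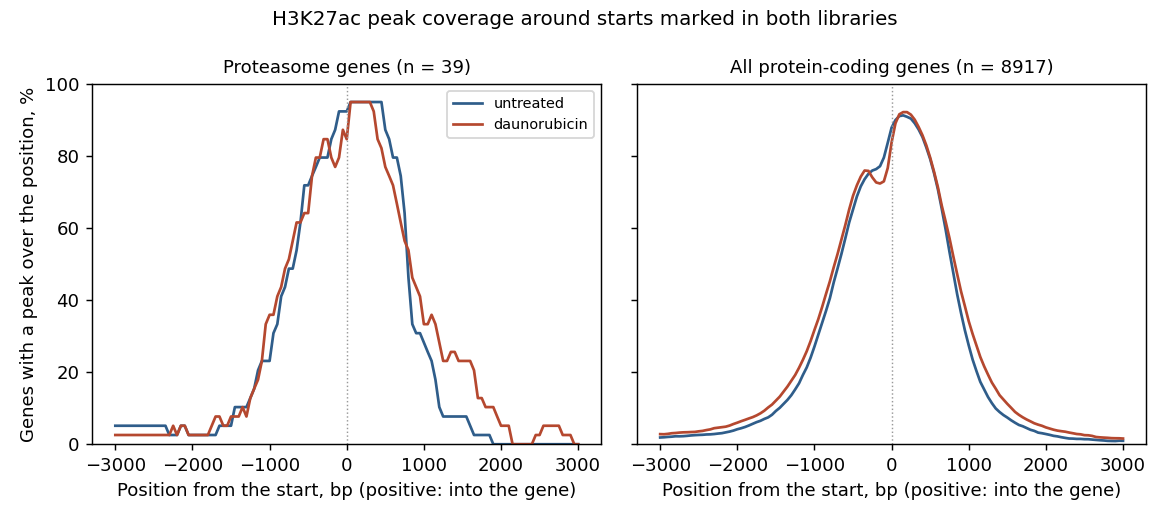
Share of genes with a peak over each position within 3000 bp of the start (y axis, %), for 39 proteasome genes and 8917 protein-coding genes whose start was marked in both libraries, with 1 line per library. In proteasome genes at 1500 bp into the gene 23.1% were covered with daunorubicin and 7.69% without, and 150 bp before the start 76.9% and 87.2% were covered.

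The profile shows where the edges lie. At 1500 bp into the gene, 9 of the 39 proteasome genes were covered in the treated library and 3 in the untreated one (23.1% and 7.69%), against 11.2% and 7.4% of all such genes. At 1500 bp before the start 3 and 2 of the 39 were covered (7.69% and 5.13%), against 12.1% and 9.23% of all. At 500 bp into the gene, 30 were covered with the drug and 34 without (76.9% and 87.2%), against 79.5% and 79.1% of all.

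**Figure D4:**
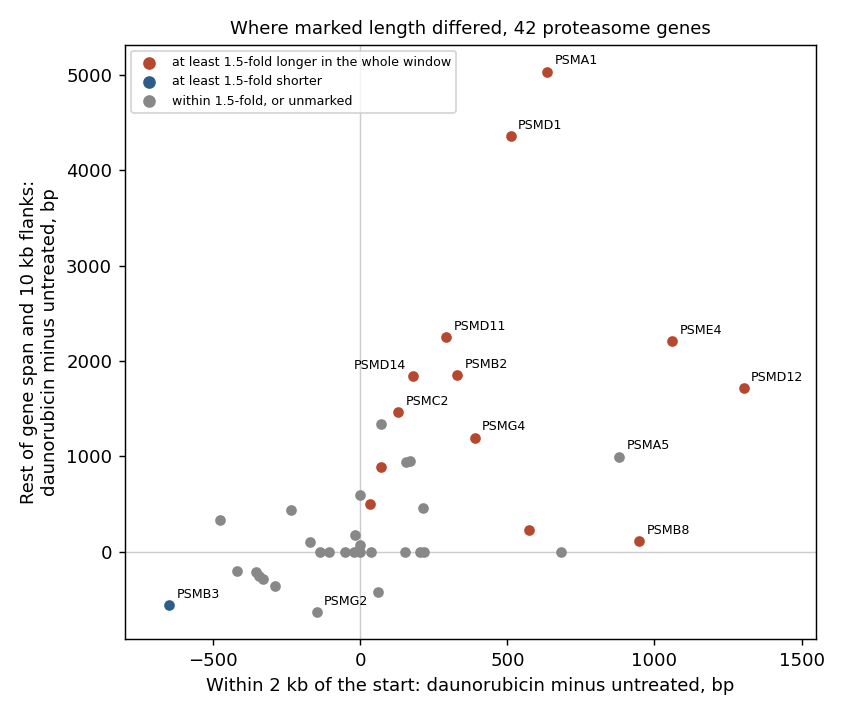
Difference in marked length (daunorubicin minus untreated, bp) within 2 kb of the start (x axis) and in the rest of the gene span and its 10 kb flanks (y axis), 1 point per gene for the 42 proteasome genes with a start in the promoter table. PSMA1 and PSMD1 lie high, with 5032 and 4357 bp outside the start, PSMD12 and PSME4 differ at the start too, and PSMB8 almost only at the start.

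In this plot of start against rest, PSMD1 differed by 512 bp within 2 kb of the start and 4357 bp elsewhere. The PSMD1 start peak itself was narrower with the drug, at 1124 bp against 1204 bp. A separate treated-only peak of 592 bp, which begins 1072 bp after the start, also falls within those 2 kb. PSMA1 differed by 5032 bp outside its start. Its 6 treated-only regions all lay upstream of the promoter-table start, inside the long annotated span. PSMB8 was the reverse, with 949 bp at the start and 115 bp elsewhere. PSMD12 had 1715 bp and PSME4 2208 bp outside a start that was itself wider with the drug. PSMB3 was shorter with the drug in both places, with differences of -649 bp at the start and -556 bp elsewhere.

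Longer genes had larger differences, in proteasome genes and in all genes. Across the 47 marked proteasome genes the difference and the gene length had a Spearman coefficient of 0.56 and a Pearson coefficient of 0.75, and across all 15907 marked protein-coding genes these were 0.44 and 0.39. The points share both libraries, and a longer gene has a wider window in which any peak counts. Of the 8 proteasome genes over 40 kb, 5 were at least 1.5-fold longer with daunorubicin (62.5%, against 53% of all genes over 40 kb), namely PSMA1, PSMB2, PSMD1, PSMD14 and PSME4. Of the 39 up to 40 kb, 8 were (20.5%, against 26.6%). The median proteasome gene was 13551.5 bp long and the median protein-coding gene 24115 bp.

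Several starts are shared with neighbours, so that a peak there may belong to another gene. Another annotated end lay within 1 kb of 17 of the 42 starts (40.5%), against 31% of all genes and 40.5% of those with an end marked in both libraries. Pairs of this kind include PSMA2 with MRPL32, PSMB9 with TAP1, PSMC2 with PMPCB, PSMD9 with HPD, PSMD13 with SIRT3, PSME4 with ACYP2 and PSMG1 with BRWD1.

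The genes with an antioxidant response element core were no more often past 1.5-fold than the others. Of the 12 with the core, 3 were at least 1.5-fold longer with daunorubicin (25%: PSMB9, PSMD12 and PSME4), and PSMB3 was the 1 at least 1.5-fold shorter. Of the 29 marked genes without it, 10 were at least 1.5-fold longer (34.5%). Over all protein-coding genes the shares were 32.9% with the core and 36.9% without. Of the 22 marked proteasome genes with the ETS core, 9 were at least 1.5-fold longer (40.9%), and of the 19 without it 4 were (21.1%). Over all genes the order was the other way, with 28% and 39.2%, and the difference between these was not tested.

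A further list held genes that act on or beside the proteasome. Of 26 such genes, among them ubiquitin genes, shuttle factors, VCP and its partners, and NFE2L1, 92.3% had an end marked in both libraries (57.6% of all genes) and 76.9% were longer with daunorubicin (79.7% of all genes). Those at least 1.5-fold longer were 6 (23.1%, against 37.2%): PAAF1, a regulatory particle chaperone, DDI2, the protease that activates NFE2L1, ECPAS, TXNL1, UFD1 and USP14. PAAF1 had 4783 bp with the drug and 1817 bp without (2.63), and DDI2 had 4152 bp and 2159 bp (1.92). UBE3C, a ubiquitin ligase, was at least 1.5-fold shorter, with 1974 bp and 3025 bp (0.653). NFE2L1 itself had 3112 bp and 2712 bp (1.15).

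Other housekeeping complexes give a scale for these counts. Of 79 cytosolic ribosomal protein genes, 98.7% had an end marked in both libraries, 57% were longer with daunorubicin and 5.06% at least 1.5-fold longer, with a median difference of 44 bp. Of 85 nuclear genes of the respiratory complexes the shares were 87.1%, 72% and 18.3% of those marked, with a median difference of 247 bp. The proteasome genes lay between them in the median difference and above both in the share past 1.5-fold, and none of these differences was tested. The median ribosomal protein gene was 5011 bp long and the median respiratory gene 8922 bp, both shorter than the median proteasome gene.

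**Figure D5:**
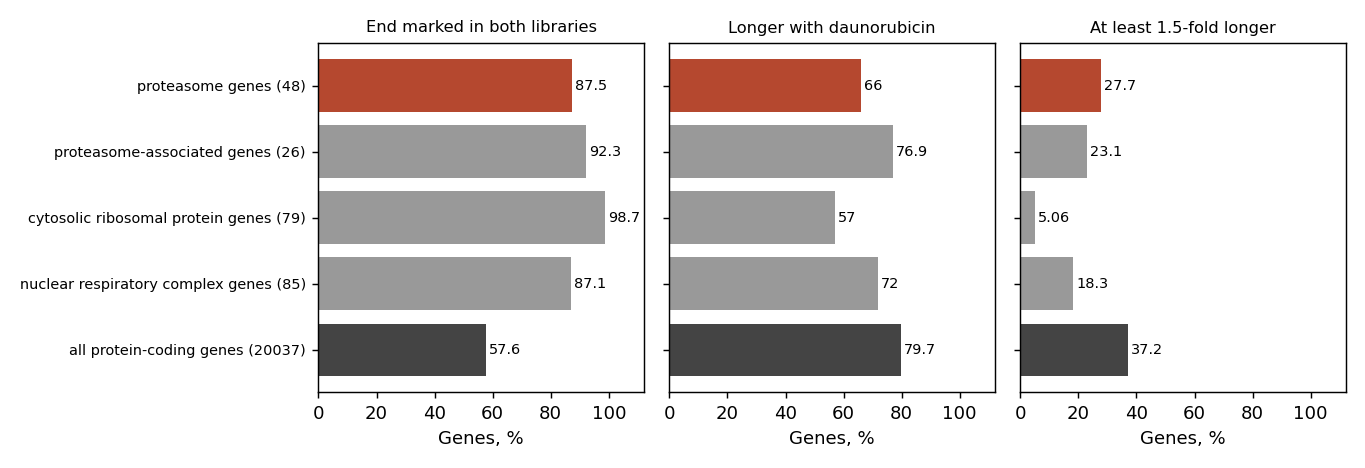
Share of genes (x axis, %) with an end marked in both libraries, with longer marking with daunorubicin and with marking at least 1.5-fold longer, for proteasome genes, 3 comparison lists and all protein-coding genes. The number after each name is the whole list, and the middle and right panels use the genes with any peak in the window, 47 of the 48 proteasome genes. Proteasome genes exceed all genes in the left panel and lie below them in the others.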

How the data were processed

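H3K27ac ChIP-seq and input libraries of K562 cells were analysed from the peak lists that the authors deposited, with chromosome, start, end, name and score. The score is the deposited value of each peak, whose scale no source used here states, and was used only to rank or filter peaks within a list. The submitters' processing notes name the aligner Bowtie2 2.3.4.3, the peak caller MACS2 2.1.1 and the package deepTools 3.2.1, along with the builds hg19 and hg38. Coordinates were read as hg38, and genes and promoter sequence are RefSeq on GRCh38.p14. Peaks were called per library, and read depth is unknown. No table of counts was used.

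Gene ends were called marked with a peak within 1 kb. Marked length was the number of bases under peaks in the gene with 10 kb added at both ends, and 1.5-fold was the threshold for naming a gene as longer or shorter. Regions were merged from peaks with at least 1 bp in common. Scripts used Python 3.11.15, numpy 2.4.6 and matplotlib 3.10.9, and the interval counts were checked on simulated data. No test was run, since each condition had 1 library. Named in full were genes marked in 1 library or neither, those past 1.5-fold, the largest gain and loss of each role group, the catalytic subunits and genes that share a window. The genes and lists were chosen with earlier results of these data known. The alternatives were a stricter score, equal numbers of peaks, removal of peaks on input peaks, other distances and flanks, other overlap rules, a wider reading of the symbols, and genes that share a peak counted once.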

Additional observations from a re-analysis of the deposited data

How the results depend on the processing

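No paired analysis was possible because each condition had 1 library, with no replicate. The number of proteasome genes with an end marked in both libraries was 42 with scores of at least 43, with the 38626 highest-scoring peaks of each list and with input peaks removed, 44 within 2.5 kb and 41 within 0.5 kb. PSMB8 was no longer marked with daunorubicin alone at 2.5 kb (0 genes). At least 1.5-fold longer were 11 genes at the stricter score (23.4%, against 31.1% of all genes), 8 of them among the 13. There were 9 with equal numbers, all among the 13, where PSMA1, PSMC2, PSMD1 and PSMD14 were lost. No extension of the span and 50 kb each gave 14, with no share of all genes at hand for these windows. With equal numbers 57.4% of proteasome genes and 61.7% of all genes were longer, and 19.1% of each at least 1.5-fold longer. At the stricter score 59.6% and 71.7% were longer. At least 1.5-fold shorter were 2 genes with equal numbers (PSMB3 and PSMD8, 4.26%, against 8.37% of all genes). There were 2 with no extension of the span (PSMC6, PSME2) and 0 with 50 kb. With 50 kb, 6 genes were shorter and the median difference was 1178 bp, and with no extension it was 106 bp. Regions in 1 library came to 79 when 50% reciprocal overlap was required (counted in peaks), 24 with equal numbers and 20 at the stricter score. Treated-only regions came to 12 and 18 in those last settings, and untreated-only ones to 16 with reciprocal overlap, 2 with a gap of 1 kb, 12 with equal numbers and 2 at the stricter score. For these settings the same counts over all regions of the series are not given here. The median difference within 2 kb of the start over 42 genes, with alternatives chosen after seeing the data, was 65 bp, and 34 bp both at the stricter score and with equal numbers. PSMD1 reversed at the stricter score (-125 bp). Of the values per gene 140 moved by less than 1.5-fold and 99 by more or to the other sign. The 140 include all values with input peaks removed. That setting had nothing to remove at these genes, since none had an input peak within 10 kb of its span, and it says nothing on stability. In all, 20 genes changed direction in some setting, and 1 of them, PSMD1, had been past 1.5-fold. PSMB7, PSMC4 and PSMD10 turned shorter at the stricter score and with equal numbers, PSMB1 with equal numbers, and PSMD13 turned longer at the stricter score. PSMA7 and PSMD8 turned longer and PSMB1, PSMC1 and PSMC6 shorter with no extension. With 50 kb PSMA4, PSMB4, PSMB10, PSMC3, PSMC5, PSMD2, PSMD5, PSMD8, PSMF1, PSMG2 and PSMG3 turned longer. The cause of these changes was not tested, beyond fewer peaks or a changed window.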
